A study of Bos taurus with 23 samples.

Results

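Genes that laboratories commonly use as internal references in expression assays were followed through cultured bovine umbilical cord cells: ACTB (ENSBTAG00000026199), GAPDH (ENSBTAG00000014731), YWHAZ (ENSBTAG00000000236) and PPIA (ENSBTAG00000012003). They were chosen by these 4 Ensembl IDs, out of 16094 gene rows in the count table. No level entered that rule, though earlier results of these data were known. The cells are labelled as Holstein mesenchymal stem cells of the umbilical cord, and poly(A) RNA was counted with bulk MARS-Seq, which reads a tag near the 3′ end of each transcript, in 23 libraries. Untreated primary cells were sampled at 12 days of culture (n = 3, of which 1 library was tagged BUC and Mix and 2 were tagged WJ) and at 50 days (n = 3 tagged WJ and n = 3 tagged BUC). Their labels carry P numbers, 3 or 4 at 12 days and 10, 15 or 18 at 50 days. Comparisons of 50-day with 12-day cells therefore cannot tell time from P number. Immortalized cells were sampled at 21 days (n = 9, of which 5 were tagged AM and 4 FBS) and at 165 days (n = 5, all tagged 2D). The line and primary cells share no day and no tag. Comparisons between them therefore cannot tell immortalization from days of culture or from what the tags stand for. The immortalized cells are 1 line, obtained from WJ cells by transient transfection of a plasmid for SV40 large T antigen, a viral protein that inactivates p53 and the retinoblastoma protein. The common medium for all cells was low-glucose DMEM with fetal bovine serum, and what the tags and P numbers stand for was not assumed.

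A reference gene serves as the denominator against which other transcripts are measured, so it is useful only where its own level stays constant across the samples compared. ACTB encodes β-actin, a building block of the actin cytoskeleton whose transcription is known to follow serum and cell shape. GAPDH encodes the glycolytic enzyme glyceraldehyde-3-phosphate dehydrogenase. YWHAZ encodes 14-3-3 zeta, an adaptor that binds phosphorylated proteins, and PPIA encodes cyclophilin A, a prolyl isomerase that helps proteins fold. Mammalian genomes carry processed pseudogene copies of ACTB, GAPDH and PPIA, and β-actin closely resembles γ-actin. How reads shared between such copies were counted is not given in the sources used here, so counts of these genes are uncertain to that extent.

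Libraries held 1840606 to 15486372 counts, and the 4 genes together took 0.985% to 1.91% of them. Levels are given as CPM, the counts scaled to a common library size, with that size rescaled by the trimmed mean of M values (TMM), and levels are compared within a gene only. The TMM factors lay between 0.801 and 1.004 in primary cells and the 165-day line and between 1.13 and 1.264 in the 21-day line. Relative to TMM, plain library totals moved the median log2 fold change of all genes by 0.37 for the 21-day line against 12-day cells, by 0.26 for the line against primary cells and by -0.32 for 165 against 21 days. The shift was 0.13 for the 165-day line against WJ cells, -0.15 for BUC against 12-day cells and -0.21 for the difference of time effects. Results that turn on this choice are given with both scales. Whether libraries of a group come from separate cultures or animals is not stated in the labels. The p-values therefore cover only variation among the deposited libraries, part of which may be technical. The label of mesenchymal cells could not be checked, because no gene ID in the table could be paired with a marker's symbol. Fewer cells of a type and less RNA per cell cannot be told apart in bulk RNA.

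Levels of 3 of the 4 genes differed between the 5 groups, and YWHAZ was the exception. ACTB was highest in 12-day primary cells and lowest in the 21-day line, a 2.35-fold span of group means. GAPDH spanned 2.06-fold (1.04 on the log2 scale), from the 165-day line down to the 50-day WJ cells, and 0.80 on the log2 scale without replicates 1 and 2 at 165 days. Over all genes these replicates stood apart from replicates 3 to 5, with a chi-square per degree of freedom of 29.6 to 44.9 between the sets and 3.36 to 5.35 among replicates 3 to 5. PPIA spanned 1.60-fold, from the 165-day line down to the 50-day BUC cells, and YWHAZ spanned 1.72-fold, from the 21-day line down to the 50-day BUC cells. A joint test of the 5 groups passed for ACTB (F = 33.4, adjusted p = 1.81e-08), GAPDH (F = 9.65, adjusted p = 0.000161) and PPIA (F = 9.26, adjusted p = 0.000209), by edgeR's quasi-likelihood test with Benjamini-Hochberg adjustment over all genes tested. The test for YWHAZ gave F = 1.82 (edgeR adjusted p = 0.168). Of all 11489 genes tested, 91.2% passed this test, so 3 of 4 is not a result particular to these genes. By library totals YWHAZ passed as well (F = 5.38, edgeR adjusted p = 0.00402).

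**Figure D1:**
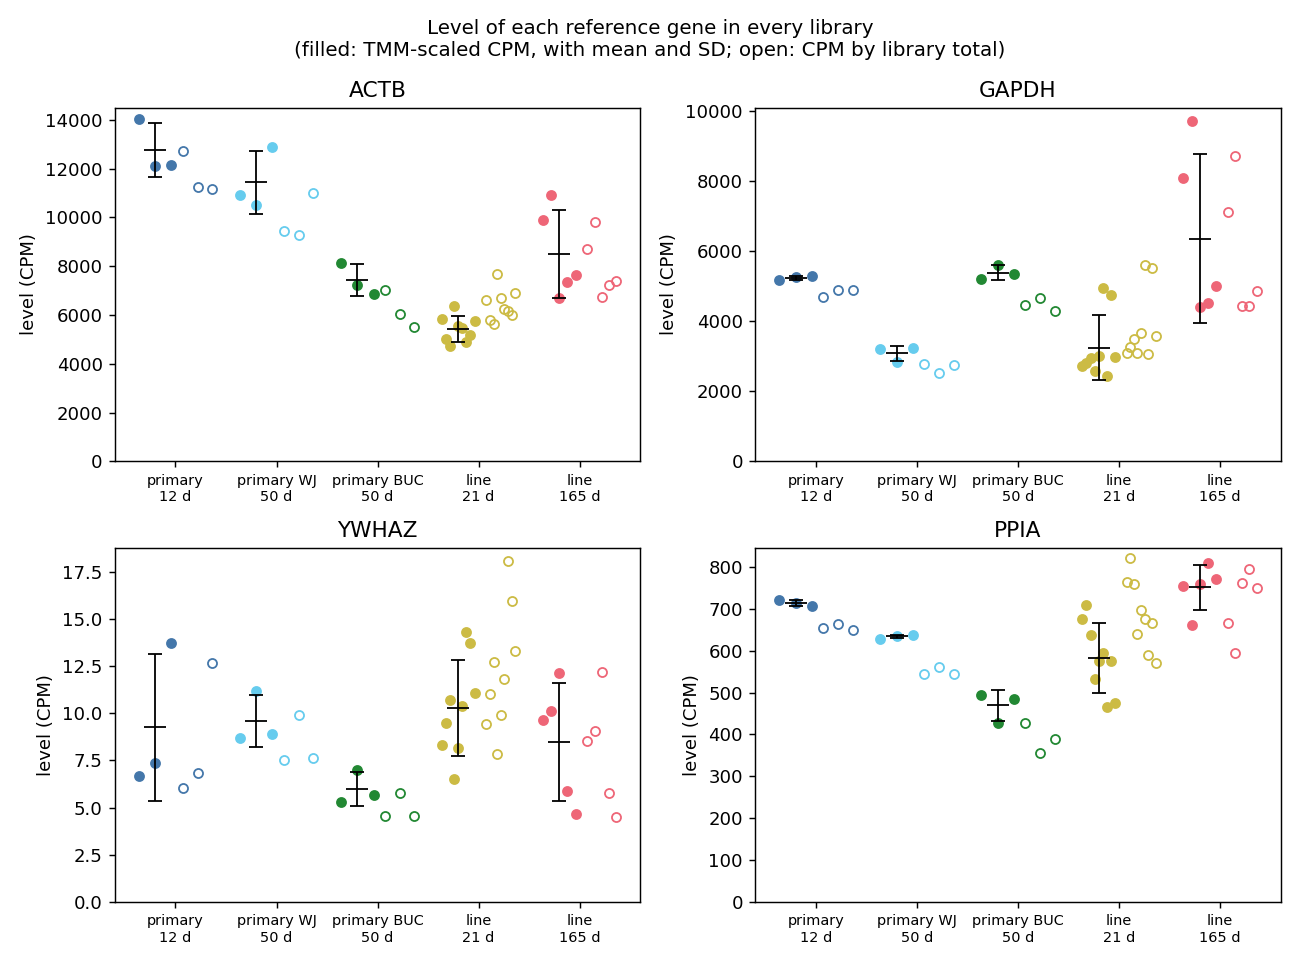
Level of ACTB, GAPDH, YWHAZ and PPIA in each of the 23 libraries (vertical axis, CPM, starting at 0) by group (horizontal axis). Filled points are TMM-scaled CPM with the group mean and SD in black, and open points are CPM by library total. ACTB runs from 14041 in a 12-day primary library to 4736 in the 21-day line, and PPIA stays between 428 and 810 on the TMM scale.

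Averaged over both times, ACTB was lower in the line than in primary cells, and it differed between primary cultures. At 12 days its level was 14041, 12095 and 12139 CPM in replicates 1 to 3, a mean of 12758 ± 1111 CPM (SD, n = 3). The 50-day WJ libraries held 10916, 10508 and 12907 CPM, a mean of 11444 ± 1283 CPM (SD, n = 3). The 50-day BUC libraries were lower, at 8152, 7247 and 6872 CPM, a mean of 7424 ± 658 CPM (SD, n = 3), and did not overlap with the WJ ones. Among the 9 libraries of the 21-day line the lowest, median and highest were 4736, 5486 and 6377 CPM, a mean of 5422 ± 526 CPM (SD, n = 9), below every library outside that group on the TMM scale. At 165 days the level was 9877 and 10925 CPM in replicates 1 and 2, and 6693, 7357 and 7630 CPM in replicates 3, 4 and 5, a mean of 8496 ± 1810 CPM (SD, n = 5).

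In order of group means, ACTB stood highest at 12 days, then in 50-day WJ cells, the 165-day line, 50-day BUC cells and the 21-day line. In that order, the BUC cells and the 21-day line were the one pair of neighbours whose libraries did not overlap. On library totals these groups changed places, with BUC cells at 6183 ± 771 CPM (SD, n = 3) and the line at 21 days at 6416 ± 631 CPM (SD, n = 9). The log2 fold change of the 21-day line over 12-day cells was -1.23 (SE 0.12, edgeR adjusted p = 2.56e-08), a level 2.35-fold lower. From 21 to 165 days in the line ACTB rose by 0.65 (SE 0.11, edgeR adjusted p = 1.85e-05), and by 0.42 without replicates 1 and 2 at 165 days (edgeR adjusted p = 0.0012). On library totals both of these differences were smaller. The 12-day cells were then at 11721 ± 877 CPM (SD, n = 3) and the 165-day line at 7970 ± 1259 CPM (SD, n = 5), against the 6416 CPM of the 21-day line. The 165-day line remained below the 50-day WJ cells, with a log2 fold change of -0.43 (SE 0.14, edgeR adjusted p = 0.0112). That call was lost without replicate 6 of the WJ cells (-0.34, edgeR adjusted p = 0.0776), and the value was -0.66 without replicates 1 and 2 of the 165-day line (edgeR adjusted p = 0.000115).

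Primary cells also differed among themselves in ACTB. BUC cells at 50 days were 1.72-fold below 12-day cells (log2 fold change -0.78, SE 0.16, edgeR adjusted p = 0.000318). WJ cells at 50 days differed from 12-day cells by -0.16 with a 95% interval from -0.49 to 0.17, which did not pass the test. The 12-day group held both tags. Within WJ, without the BUC library at 12 days, the ACTB difference was -0.09 (edgeR adjusted p = 0.751). For BUC, with 1 library at 12 days, time and tag were not separated here. At 50 days WJ cells were 1.54-fold above BUC cells (log2 fold change 0.62, SE 0.16, edgeR adjusted p = 0.00688).

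GAPDH had 2 levels among the primary cultures and was uneven within the line. Its 12-day libraries were close together, at 5183, 5251 and 5296 CPM, a mean of 5243 ± 57.2 CPM (SD, n = 3). The 50-day BUC libraries were at 5190, 5600 and 5356 CPM, a mean of 5382 ± 206 CPM (SD, n = 3). The 50-day WJ libraries were lower, at 3196, 2845 and 3227 CPM, a mean of 3090 ± 213 CPM (SD, n = 3), and overlapped neither of the other primary groups. In the 21-day line the lowest, median and highest levels were 2427, 2947 and 4938 CPM, a mean of 3240 ± 931 CPM (SD, n = 9). Replicates 6 and 8, both tagged FBS, stood at 4938 and 4750 CPM, and the other libraries of that group at no more than 3012 CPM. Over all genes, replicates 6 and 8 also had the lowest chi-square of any pair within a group, 2.85 per degree of freedom, above counting noise. This measure grows with depth, so it does not show that they were the closest pair. They held 4492347 and 6200879 counts, against 13373118 and 9512217 in replicates 4 and 5 at 165 days, whose chi-square was 3.36. At 165 days the level was 8076 and 9723 CPM in replicates 1 and 2 and 4413, 4519 and 5015 CPM in replicates 3, 4 and 5, a mean of 6349 ± 2411 CPM (SD, n = 5).

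The group means of GAPDH ran from the 165-day line through 50-day BUC cells, 12-day cells and the 21-day line to the 50-day WJ cells. Among neighbours in that order, the 12-day cells and the 21-day line were the one pair with no overlap. The 21-day line was 1.62-fold below 12-day cells (log2 fold change -0.69, SE 0.22, edgeR adjusted p = 0.00911). By library totals that value was -0.34 (edgeR adjusted p = 0.148), and with the FBS libraries alone at 21 days -0.38 (edgeR adjusted p = 0.207). Against its later comparator the line was higher, since at 165 days it was 2.06-fold above the 50-day WJ cells (log2 fold change 1.04, SE 0.25, edgeR adjusted p = 0.00126). Averaged over both times, the line differed from primary cells by -0.03, with a 95% interval from -0.34 to 0.28. From 21 to 165 days GAPDH rose 1.96-fold (log2 fold change 0.97, SE 0.18, edgeR adjusted p = 8.82e-05). Without replicates 1 and 2 at 165 days the rise was 0.52 (edgeR adjusted p = 0.0128) and the difference from WJ cells was 0.59 (edgeR adjusted p = 0.023).

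Among primary cells, GAPDH was lower in 50-day WJ cells than in the 12-day group (log2 fold change -0.76, SE 0.28, edgeR adjusted p = 0.0344) and than in 50-day BUC cells (log2 fold change -0.80, SE 0.28, edgeR adjusted p = 0.0441). Both calls were near the threshold. Leaving out any 1 library of the 12-day or WJ groups raised the former adjusted p to between 0.0629 and 0.103 in edgeR. Leaving out any 1 of the 9 primary libraries raised the latter to between 0.0519 and 0.124. BUC cells at 50 days and 12-day cells differed by 0.04, with a 95% interval from -0.53 to 0.60.

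PPIA had the smallest coefficient of variation over libraries of the 4 genes on the TMM scale. Its 12-day libraries held 722, 714 and 707 CPM, a mean of 714 ± 7.55 CPM (SD, n = 3). The 50-day WJ libraries held 629, 636 and 638 CPM, a mean of 634 ± 4.51 CPM (SD, n = 3), all below the 12-day ones. Their coefficient of variation of 0.711% was under the mean counting error of 2.67%, so this SD understates the error. The 50-day BUC libraries were the lowest primary ones, at 495, 428 and 485 CPM, a mean of 469 ± 36.1 CPM (SD, n = 3). In the 21-day line the lowest, median and highest were 466, 575 and 710 CPM, a mean of 582 ± 83.7 CPM (SD, n = 9), which overlapped with both 50-day primary groups. At 165 days replicates 1 to 5 held 755, 662, 759, 810 and 772 CPM, a mean of 752 ± 54.7 CPM (SD, n = 5), the highest group mean.

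PPIA was 1.52-fold lower in 50-day BUC cells than at 12 days (log2 fold change -0.61, SE 0.14, edgeR adjusted p = 0.000915). In WJ cells at 50 days it was 1.35-fold above BUC cells (log2 fold change 0.43, SE 0.14, edgeR adjusted p = 0.029). That call was lost when any of WJ replicates 2, 4 and 6 or BUC replicates 3 and 5 was left out, with edgeR adjusted p from 0.0566 to 0.128. Against 12-day cells, WJ cells at 50 days differed by -0.17 (95% interval -0.46 to 0.11). The line averaged over its times differed from primary cells by 0.08 (95% interval -0.07 to 0.24) on the TMM scale, and by 0.34 on library totals (edgeR adjusted p = 0.00026). The 165-day line differed from 50-day WJ cells by 0.24 (95% interval -0.01 to 0.50, edgeR adjusted p = 0.0914), and by 0.37 on library totals (edgeR adjusted p = 0.00988).

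Other PPIA comparisons depended on the scale. The 21-day line was 1.23-fold below 12-day cells (log2 fold change -0.30, SE 0.11, edgeR adjusted p = 0.0272), but by library totals the sign turned, to 0.06 (edgeR adjusted p = 0.627). With RLE size factors it was -0.20 (edgeR adjusted p = 0.117), and the call was also lost without any 1 of the 12-day libraries (edgeR adjusted p from 0.0651 to 0.0783). From 21 to 165 days PPIA rose 1.29-fold (log2 fold change 0.37, SE 0.09, edgeR adjusted p = 0.00159). By library totals this rise was 0.05 (edgeR adjusted p = 0.626), and with the AM libraries alone at 21 days it was 0.16 (edgeR adjusted p = 0.144).

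The row listed as YWHAZ had few counts, which limits what can be seen of it. The count table gives IDs only, so the pairing of this ID with YWHAZ could not be checked, and the values are those of the ID. It had 14 to 206 counts per library, against 1001 to 10624 for PPIA, and its counting error was 6.97% to 26.7% of the level. The 12-day libraries held 6.65, 7.35 and 13.8 CPM, a mean of 9.25 ± 3.91 CPM (SD, n = 3). The 50-day WJ libraries held 8.71, 11.2 and 8.92 CPM, a mean of 9.61 ± 1.38 CPM (SD, n = 3), and the BUC libraries 5.27, 6.97 and 5.69 CPM, a mean of 5.98 ± 0.886 CPM (SD, n = 3). Every BUC library at 50 days lay below every WJ library of that time. In the 21-day line the lowest, median and highest were 6.54, 10.4 and 14.3 CPM, a mean of 10.3 ± 2.55 CPM (SD, n = 9). At 165 days replicates 1 to 5 held 9.66, 10.1, 12.1, 5.87 and 4.65 CPM, a mean of 8.49 ± 3.12 CPM (SD, n = 5). In the order of group means every pair of neighbours overlapped.

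With all libraries and TMM scaling no comparison of YWHAZ passed the test, and its intervals were wide. The line averaged over its times differed from primary cells by 0.15 (95% interval -0.24 to 0.54), and the 21-day line from 12-day cells by 0.15 (95% interval -0.40 to 0.70). The 165-day line differed from 50-day WJ cells by -0.19 (95% interval -0.87 to 0.49), and from the 21-day line by -0.30 (95% interval -0.77 to 0.17, edgeR adjusted p = 0.268). That last difference was -0.62 on library totals (edgeR adjusted p = 0.0249) and -0.69 with the FBS libraries alone at 21 days (edgeR adjusted p = 0.0348). Among primary cells, BUC cells at 50 days differed from 12-day cells by -0.64 (95% interval -1.36 to 0.09, edgeR adjusted p = 0.141) and WJ from BUC cells by 0.68 (95% interval -0.12 to 1.47, edgeR adjusted p = 0.244). WJ cells at 50 days differed from 12-day cells by 0.04 (95% interval -0.70 to 0.78). A missed threshold does not show that YWHAZ was constant.

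Counted over the 4 genes, each comparison between groups called at least 1 of them. For the line against primary cells 1 of 4 passed (ACTB, log2 fold change -0.68, SE 0.09, edgeR adjusted p = 3.85e-07), where 69.2% of all genes tested did. For the 21-day line against 12-day cells 3 of 4 passed, all lower, where 55.2% of all genes did. For the 165-day line against 50-day WJ cells 2 of 4 passed in opposite directions, with a background of 61.5%. WJ cells at 50 days against 12-day cells gave 1 of 4 with a background of 34.9%, and BUC cells gave 2 of 4 with a background of 47.7%. WJ against BUC cells gave 3 of 4, where 19% of all genes passed, and 1 to 3 of 4 when single libraries were left out. The 19% covers genes of all levels, whereas these 3 had means of at least 100 CPM. Larger absolute changes than those of ACTB, GAPDH and PPIA were seen in 33.9%, 25.9% and 46.4% of all genes tested. For 165 against 21 days in the line 3 of 4 passed, all higher, with a background of 60.3%. Several of these comparisons share libraries, so their counts are not independent of each other.

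**Figure D2:**
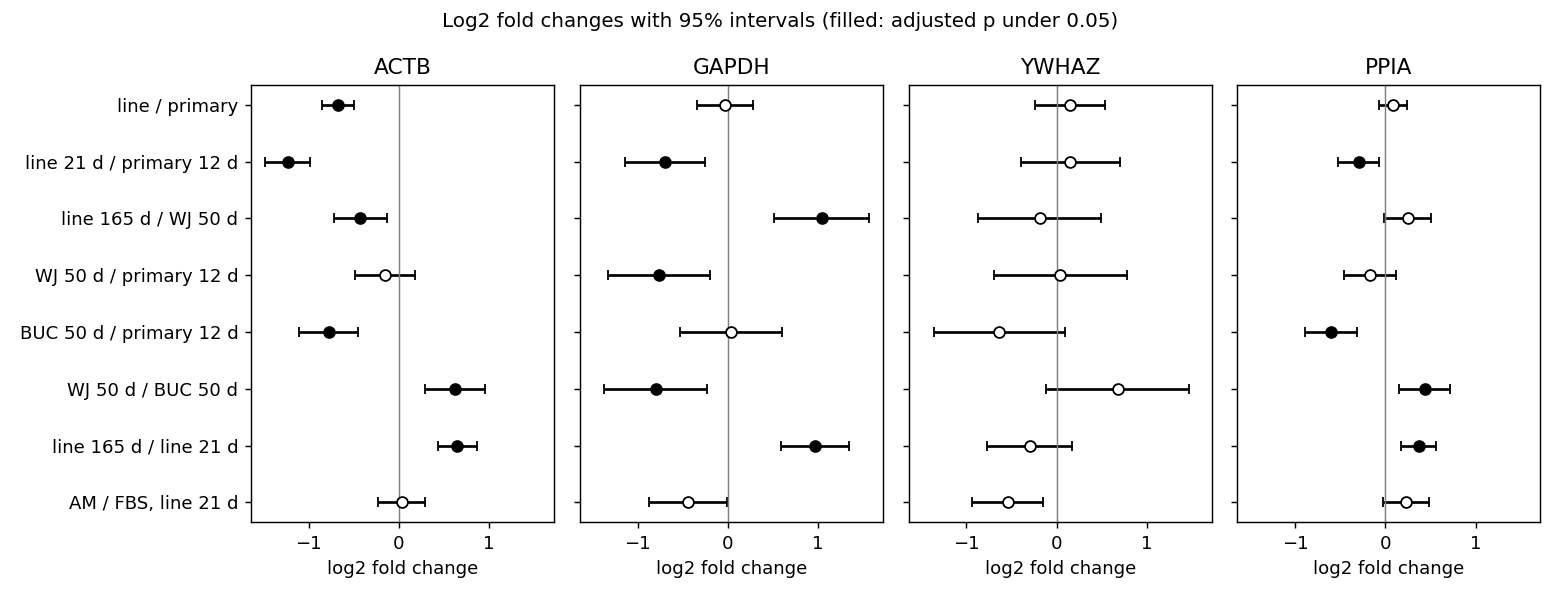
Log2 fold change (horizontal axis) of each gene in 8 comparisons (vertical axis), each as the group named first over the group named second, with its 95% interval. Filled points passed the edgeR test at an adjusted p under 0.05. ACTB lies left of 0 for the line over primary cells and GAPDH lies on both sides of 0, while all YWHAZ points are open.

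The effect of time was compared between the line and primary cells. The rise from 21 to 165 days in the line exceeded the change from 12 to 50 days in primary cells (WJ and BUC with equal weight) by 1.12 on the log2 scale for ACTB (SE 0.17, edgeR adjusted p = 1.22e-05). It did so by 1.33 for GAPDH (SE 0.30, edgeR adjusted p = 0.000664) and by 0.76 for PPIA (SE 0.15, edgeR adjusted p = 0.000208). For YWHAZ the difference was 0.00 (95% interval -0.68 to 0.69). Thus 3 of 4 passed, where 51.4% of all genes tested did. The spans in days differ, and the tag 2D occurs only at 165 days, so time and that tag cannot be told apart in the line. In primary cells no P number occurs at both times, so time and P number cannot be told apart there. The 12-day group also mixes the tags unequally. For GAPDH the primary change averages unlike values, -0.76 in WJ and 0.04 in BUC cells. Without replicates 1 and 2 at 165 days the GAPDH value was 0.88 (edgeR adjusted p = 0.00562).

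Within the 21-day line, none of the 4 genes passed the test between AM and FBS libraries, where 0.425% of the 10597 genes tested did. At an unadjusted p under 0.05 there were 2 of 4, GAPDH and YWHAZ, and DESeq2 called 0 of 4. The log2 fold change of AM over FBS was -0.44 for GAPDH (95% interval -0.87 to -0.01, edgeR adjusted p = 0.512) and -0.54 for YWHAZ (95% interval -0.93 to -0.15, edgeR adjusted p = 0.336). It was 0.03 for ACTB (95% interval -0.23 to 0.29) and 0.23 for PPIA (95% interval -0.03 to 0.49). For GAPDH the FBS libraries were themselves divided, at 4938 and 4750 CPM in replicates 6 and 8 and at 2427 and 2982 CPM in replicates 7 and 9. Over all genes, replicates 1, 2, 3, 6 and 8 stood apart from replicates 4, 5, 7 and 9, a divide that cuts across both tags. Chi-square per degree of freedom was 26.3 to 53.9 between these sets, 2.85 to 14.8 within the former and 4.70 to 24.5 within the latter. The spread within tags that the test of AM against FBS used includes this divide. The GAPDH levels did not follow it. AM replicates 1 to 3, in the set of replicates 6 and 8, held 2724, 2811 and 2947 CPM. AM replicates 4 and 5, in the other set, held 2564 and 3012 CPM.

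The ratio of 1 reference gene to another within a library does not depend on how the library is scaled, and these ratios were not constant. The median ratio of ACTB to GAPDH counts was 2.30 at 12 days, 3.69 in 50-day WJ cells, 1.29 in 50-day BUC cells, and in the line 1.84 at 21 days and 1.52 at 165 days. Its single-library values ran from 1.09 to 4.0. Group means of the log2 ratio differed by up to 1.43, or 2.69-fold, between WJ and BUC cells at 50 days, against a pooled SD within groups of 0.30. All 3 WJ libraries, at 3.42 to 4.0, lay above all 3 BUC libraries, at 1.28 to 1.57. For this ratio the widest gap between group means was thus between the tags of the 50-day cultures.

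Ratios to PPIA divided the groups differently for each gene. The median ratio of ACTB to PPIA was 17.2, 17.4 and 16.5 in the 12-day, 50-day WJ and 50-day BUC cells, and 9.24 at 21 days and 9.89 at 165 days in the line. Primary libraries lay at 14.2 to 20.2 and the 21-day libraries at 7.06 to 12.1, without overlap, and the 165-day libraries reached 16.5 in replicate 2. The ratio of GAPDH to PPIA instead divided the primary cells by tag at 50 days, with medians of 5.06 in WJ and 11.04 in BUC cells. At 12 days it was 7.18 in the BUC library and 7.35 and 7.49 in the WJ libraries, with no such divide. In the line its medians were 5.21 at 21 days and 6.50 at 165 days, and its range at 165 days was 5.58 to 14.7. The largest differences between group means were 1.92-fold for ACTB to PPIA and 2.36-fold for GAPDH to PPIA. Ratios to YWHAZ carry the counting error of its few counts, and their pooled SD within groups was 0.46 to 0.50 on the log2 scale.

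**Figure D3:**
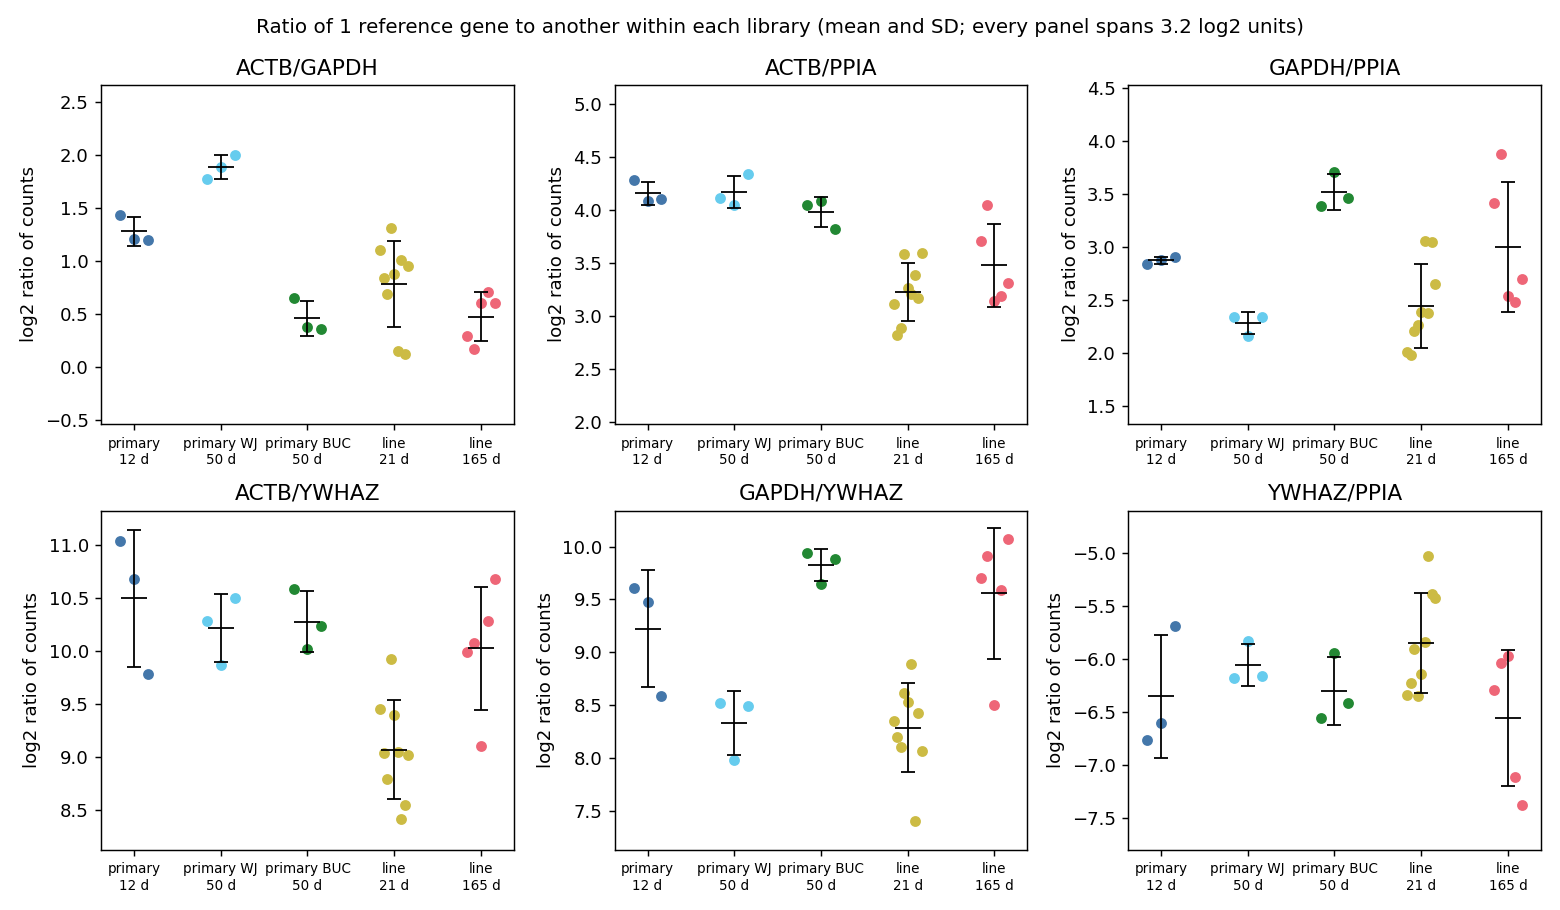
Log2 ratio of the counts of 1 reference gene to another (vertical axis) in each library by group (horizontal axis), with the group mean and SD in black and an axis of equal length in every panel. Group means of ACTB to PPIA are 3.98 to 4.17 in primary cells and 3.23 in the 21-day line, and ACTB to GAPDH separates the 50-day WJ and BUC cells.

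A common stability measure, M, averages for each gene the SD of its log2 ratio to each of the others. A low value marks a gene whose ratios to the others varied little, which is not the same as a steady level. Over the 23 libraries M was 0.518 for PPIA, 0.588 for ACTB, 0.622 for GAPDH and 0.682 for YWHAZ. Over the 5 group means, where single libraries weigh less, it was 0.397 for PPIA, 0.512 for YWHAZ, 0.530 for ACTB and 0.600 for GAPDH. PPIA came first in both, and YWHAZ moved from last to next after it. Without YWHAZ, M over 23 libraries was 0.509 for PPIA and 0.511 for ACTB, which does not set them apart, and 0.546 for GAPDH. Within groups M of these 3 genes was 0.0703 to 0.124 at 12 days and 0.109 to 0.166 in the 50-day groups, whereas it was 0.335 to 0.403 in the line at 21 days and 0.310 to 0.502 at 165 days. The ratios thus varied more from library to library in the line than in primary cells, a description without a test. PPIA was not first everywhere. At 165 days it had the highest M of these 3 genes, 0.502, against 0.423 for GAPDH and 0.310 for ACTB. Both line groups held sets of libraries that stood apart over all genes, and such divides enter these values. At 165 days the ratio of ACTB to GAPDH was 1.22 and 1.12 in replicates 1 and 2, and 1.52 to 1.63 in replicates 3 to 5.

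Set among abundant genes on the TMM scale, ACTB and GAPDH were not unusually steady. Of the 1869 genes with a mean of at least 100 CPM, the median coefficient of variation over 23 libraries was 34.5%. It was 36.1% for ACTB, with 53.3% of those genes lower, and 40.7% for GAPDH, with 64.4% lower. PPIA had 17.4%, and 6.21% of those genes were lower. For YWHAZ the value was 30.7%, and 24.2% of all 11489 genes tested were lower, where the median was 43.9%. The coefficient gives each library the same weight, so the 9 libraries of the 21-day line count most. By the span of the 5 group means, which weighs groups alike, 49.8%, 38% and 14.8% of the abundant genes had a smaller value than ACTB, GAPDH and PPIA, and 13.6% of all genes a smaller one than YWHAZ. The ranks of YWHAZ are over all genes and are not comparable with those among abundant genes. On the TMM scale GAPDH thus ranked behind ACTB by the coefficient and ahead of it by the span. By library totals the coefficients were 26.9% for ACTB, 33.7% for GAPDH, 39.2% for YWHAZ and 19.7% for PPIA, so YWHAZ varied most. On that scale GAPDH also had a larger span than ACTB, 1.14 against 0.92 in log2.

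**Figure D4:**
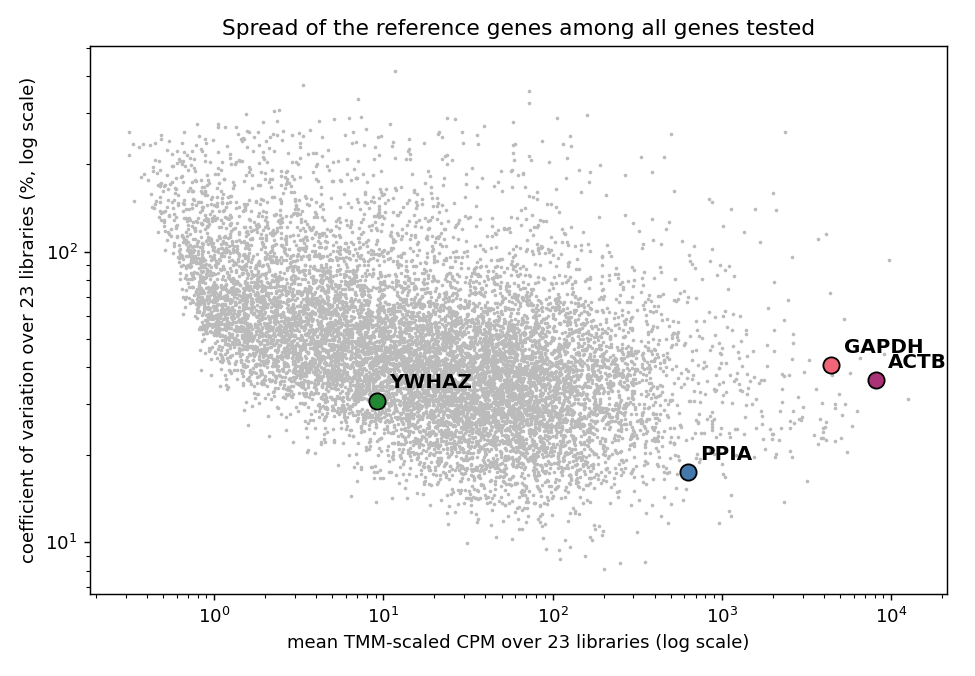
Coefficient of variation of TMM-scaled CPM over 23 libraries (vertical axis, %, log scale) against its mean (horizontal axis, log scale) for the 11489 genes tested (grey), with the 4 reference genes marked. ACTB (36.1%) and GAPDH (40.7%) lie inside the cloud and PPIA (17.4%) near its lower edge, while YWHAZ (30.7%) lies among genes of low count.

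Scaling by 1 reference gene shifts all other genes together, by construction, and the results for the line against primary cells were as follows. Relative to TMM, the median log2 fold change moved by 0.70 with ACTB and by -0.07 with PPIA, near the size of their own differences (-0.68 and 0.08). With GAPDH it moved by 0.14, more than the difference of GAPDH itself (-0.03). With TMM scaling 52.4% of the genes called were higher in the line, 4166 against 3780 lower. With library size set to the ACTB count of each library 76.3% of all genes tested were called and 85.8% of them were higher, 7522 against 1244. With the GAPDH count 55.3% of all genes were called, 62.6% of them higher, and with the PPIA count 65.5% were called, 47.6% of them higher. Library totals gave 67.9% higher. The median log2 fold change of all genes was 0.06 with TMM, 0.75 with ACTB, 0.20 with GAPDH and -0.01 with PPIA. Measured against ACTB, whose own log2 fold change was -0.68, GAPDH was higher in the line by 0.63 (edgeR adjusted p = 0.000177), PPIA by 0.79 (edgeR adjusted p = 3.27e-06) and YWHAZ by 0.85 (edgeR adjusted p = 0.00129). Against GAPDH, ACTB was lower by 0.57 (edgeR adjusted p = 0.000949, a log2 fold change of -0.57), and against PPIA its log2 fold change was -0.73 (edgeR adjusted p = 9.63e-06).

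**Figure D5:**
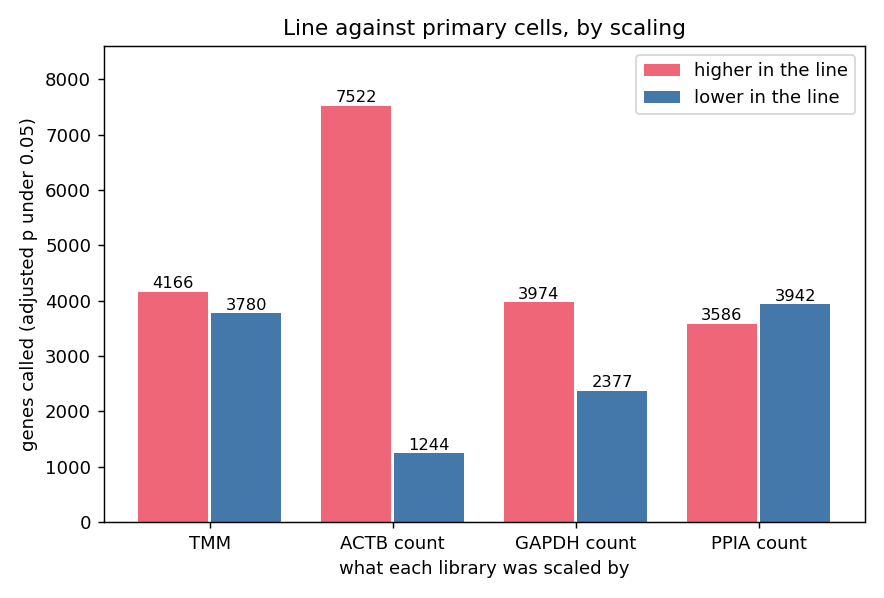
Number of genes called at an edgeR adjusted p under 0.05 (vertical axis, starting at 0) as higher (red) or lower (blue) in the line than in primary cells, by what each library was scaled by (horizontal axis). Scaling by ACTB gives 7522 higher and 1244 lower genes, against 4166 and 3780 with TMM.

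The genes whose pattern was most like that of each reference gene were sought by Pearson's r of log2 TMM-scaled CPM over 23 libraries, among 7127 genes with a mean of at least 10 CPM. They were ENSBTAG00000011400 for ACTB (r = 0.925), ENSBTAG00000010658 for GAPDH (r = 0.903), ENSBTAG00000019325 for PPIA (r = 0.909) and ENSBTAG00000020886 for YWHAZ (r = 0.678). Among the reference genes themselves r was 0.45 for ACTB with GAPDH, 0.37 for ACTB with PPIA and 0.23 for GAPDH with PPIA. With YWHAZ it was between -0.19 and -0.02. All points share the libraries, their scaling and the 5 groups, so these values are descriptions.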

How the data were processed

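Bulk MARS-Seq was run on poly(A) RNA of 23 libraries, per the labels' protocols. The submitters' processing notes name the build ARS-UCD1.2 and the tools cutadapt, STAR, HTSeq and DESeq. Not given in the sources used here are versions, annotation release, strand use and molecular identifiers. Values in the deposited table are raw, whole-number counts of each gene without normalization. The names of the 4 genes come from the list of IDs, and 0 of 16094 IDs matched a symbol in the reference table used, so planned lists of related genes and of cell type markers could not be run.

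Counts were fitted with edgeR 4.0.16 in R 4.3.3 (TMM, filterByExpr, quasi-likelihood F test, Benjamini-Hochberg over all genes tested, threshold 0.05). All 23 libraries entered 1 fit of 5 groups, and the 9 libraries of the 21-day line 1 fit of AM against FBS. The genes named are the 4 references and the gene most like each in pattern (prior count 2). The members and lists were chosen with earlier results of these data known, and the difference of time effects and the scaling by single genes were added after the data were seen. Counting errors are square roots of counts and cover counting error only. The fits were tested on simulated data. Alternatives included DESeq2 1.42.0, other scalings, filters and thinned counts, subsets of libraries and leaving out each library. Replicate numbers of the titles were checked for pairing and did not pair libraries, with correlations of deviations from -0.202 to 0.182 over 25 pairs, and no pair of libraries agreed within counting noise.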

Additional observations from a re-analysis of the deposited data

Results flagged for a closer look

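The change with time differed between the line and primary cells for 3 of the 4 genes, by a test of the difference itself. The log2 change from 21 to 165 days in the line minus that from 12 to 50 days in primary cells was 1.12 for ACTB, 1.33 for GAPDH and 0.76 for PPIA. The edgeR adjusted p-values were 1.22e-05, 0.000664 and 0.000208, and 51.4% of all genes tested passed. The spans in days differ. Time cannot be told apart from the tag 2D in the line or from P number in primary cells. The primary change of GAPDH averages -0.76 in WJ and 0.04 in BUC cells, and the PPIA rise in the line depended on the scale. Without replicates 1 and 2 at 165 days the GAPDH value was 0.88 (edgeR adjusted p = 0.00562).

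At 50 days the untreated WJ and BUC cells differed in the same 3 genes. The log2 fold change of WJ over BUC was 0.62 for ACTB, -0.8 for GAPDH and 0.43 for PPIA (edgeR adjusted p = 0.00688, 0.0441 and 0.029), so GAPDH went against ACTB and PPIA. Of all genes tested, which include many of lower level, 19% passed. A larger absolute change was seen in 33.9%, 25.9% and 46.4% of them, so these changes were not unusual in size. The GAPDH call was lost without any 1 of the 9 primary libraries (edgeR adjusted p up to 0.124) and the PPIA call without any 1 of 5 of them (up to 0.128), while the ACTB call held (up to 0.0431).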

How the results depend on the processing

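Across 429 single-gene values under alternatives other than leaving out a library, 381 kept their side of the threshold, 38 lost the call, 8 gained it and 2 turned direction with a call on 1 side. Over 864 values with 1 library left out, 840 kept their side and 24 lost the call. Among those that kept their side, 24 of the former and 21 of the latter turned sign, none of them called. The 2 turns with a call were PPIA in the 21-day line against 12-day cells by library totals (0.065) and GAPDH in the line against primary cells scaled by ACTB (0.63), which follows by construction from the lower ACTB level in the line. The number of genes called of 4 moved to 0 or by more than 1.5 times as follows. Smaller moves are not listed. Examples are the loss of PPIA with RLE factors in the 21-day line against 12-day cells and the gain of YWHAZ in the joint test by library totals. For the line against primary cells it was 0 against a fold of 1.5 (glmTreat), 2 by library totals and 3 when scaled by ACTB. For the 21-day line against 12-day cells it was 1 by glmTreat, 1 by library totals and 1 with thinned counts, and for the 165-day line against WJ cells 1 by glmTreat. For WJ against 12-day cells it was 0 with DESeq2, RLE factors, upper-quartile factors, thinned counts, glmTreat and without the BUC library at 12 days, and 0 to 1 without single libraries. For BUC against 12-day cells it was 0 by glmTreat, for WJ against BUC 0 by glmTreat and 1 with thinned counts, and for 165 against 21 days 1 by glmTreat. Leaving out single libraries gave 1 to 3 for WJ against BUC and 1 to 2 for the 165-day line against WJ cells. By library totals the spans of group means (log2) were 0.92 for ACTB, 1.14 for GAPDH, 1.30 for YWHAZ and 0.87 for PPIA. The cause of the other moves was not tested.

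The title numbers did not pair the libraries, and with them as a replicate block 1 of 4 was called for the 165-day line against WJ cells and 1 of 4 for WJ against BUC. Under this block ACTB was at -0.37 (edgeR adjusted p = 0.0552) in the former and at 0.52 (edgeR adjusted p = 0.0813) in the latter. PPIA was at 0.48 (edgeR adjusted p = 0.055) in the latter and at -0.18 (edgeR adjusted p = 0.21) in the 21-day line against 12-day cells. A block by the P number of the 50-day libraries changed no call of WJ against BUC.

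The number of all genes called fell by more than 1.5 times with glmTreat, from 7946 to 4052 for the line against primary cells and from 2178 to 956 for WJ against BUC, and with thinned counts to 5036 and 910. AM against FBS called 45 genes by edgeR, 195 by DESeq2, 10 with thinned counts, 5 by glmTreat and 6 to 46 without single libraries. Depth limits YWHAZ above all, with 14 counts in the library where it had fewest.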
